A study of Mus musculus with 17 samples.

Results

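B-cell-rich and B-cell-poor perigonadal fat of female mice is compared here. The 10 female libraries were divided by their normalized count of *Cd79a*, which encodes a signalling chain of the B cell receptor (chr7:24897381-24902197 of GRCm38, plus strand). The 4 libraries at 240 or more were called B-cell-rich and the 6 below 240 B-cell-poor, out of 17 libraries in all. The members were chosen by this measured value, so the differences between the sides are given as a description and were not tested.

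The study asked whether loss of the long noncoding RNA *U90926* alters obesity-associated phenotypes. RNA was sequenced from whole perigonadal white adipose tissue (pWAT) of WT C57BL/6J mice and of homozygous U9-KO mice, which lack every exon of *U90926* on the same background. Both genotypes were littermates from heterozygous breeders, went through the same phenotyping pipeline at a mouse clinic, and gave 1 library per mouse from 5 WT females, 5 U9-KO females, 3 WT males and 4 U9-KO males. Mice were killed at 16 weeks of age by the methods, while the phenotyping schedule ran to 19 weeks. None of the mice analysed here received a treatment named in the labels, the deletion is in every cell, and adipocytes, stroma, vessels, leukocytes and any adhering reproductive tissue were sequenced together. *U90926* itself had a normalized count of 0 in every B-cell-rich library and of at most 1 in the B-cell-poor ones, so the counts do not check the genotype labels.

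B cells live in visceral fat, many of them in fat-associated lymphoid clusters, small collections of leukocytes fed by blood and lymphatic vessels and organised by chemokines such as CXCL13 from stromal cells. The B cell receptor is a membrane antibody held by the CD79A and CD79B chains, and CD22 restrains its signal. The transcription factors PAX5, EBF1 and E2A set the B cell programme, and plasma cells later shut much of it off while they secrete antibody. A bulk library cannot tell fewer cells of a type from less RNA per cell.

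The B-cell-rich side held U9-KO female 1 with a *Cd79a* count of 317, U9-KO female 2 with 311, U9-KO female 5 with 293 and WT female 2 with 293. The B-cell-poor side held WT female 1 with 195, WT female 3 with 171, U9-KO female 4 with 132, WT female 5 with 116, WT female 4 with 113 and U9-KO female 3 with 82. The nearest values across the threshold were therefore 293 inside and 195 outside. The rich mice lay close together and the poor mice were spread more widely.

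By genotype, 3 of the 4 rich mice were U9-KO and 1 was WT, and 2 of the 6 poor mice were U9-KO and 4 were WT. Fisher's exact test (two-sided) on these numbers of mice gave p = 0.524 with an odds ratio of 6. The smallest p that 4 against 6 mice can give is 0.0476. Both genotypes were thus present on both sides, and an association between side and genotype was not detectable with 10 mice.

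The normalized counts summed to between 21490907 and 23313183 in the rich libraries and between 20243688 and 28620744 in the poor ones, and the size factors behind them, estimated from the low values and larger in deeper libraries, were 0.928 to 1.21 and 0.757 to 1.08. Summed over 16 ovary genes, U9-KO female 1 on the rich side had 143191 normalized counts and WT female 4 on the poor side 130471, while no other female exceeded 39115. Summed over 6 oviduct and uterus genes, WT female 3 had 8585 and U9-KO female 4 had 2273, both on the poor side, and the other 8 females had between 228 and 1196. The lymph node genes *Glycam1* and *Madcam1*, markers of high endothelial venules, reached at most 4 and 5 in any female.

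To show sequence that the leading genes carry, the bases before the start of *Cd79a* and *Cd22* were read from the RefSeq promoter table for GRCm38.p6. Only stretches outside annotated exons are given, 5′ to 3′ on the strand of the gene, with motif matches in capitals. The *Cd79a* stretch is chr7:24897247-24897380 on the plus strand, and its capitals mark an E-box CAGGTG, a sequence bound by E2A and related factors. The *Cd22* stretch is chr7:30879029-30879176 on the minus strand, and its capitals mark a match to TCCCNNGGGA, the letters searched for EBF1. This stretch precedes a RefSeq start that lies inside the annotated gene (chr7:30865402-30880342), downstream of the gene's outermost start.
Cd79a: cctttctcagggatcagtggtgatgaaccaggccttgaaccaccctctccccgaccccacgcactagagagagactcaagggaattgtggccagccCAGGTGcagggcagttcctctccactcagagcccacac
Cd22: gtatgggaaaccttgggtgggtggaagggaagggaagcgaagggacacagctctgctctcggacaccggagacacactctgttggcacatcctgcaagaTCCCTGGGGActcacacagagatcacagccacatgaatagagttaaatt
Of the 26 genes in the B cell lists used below, 19 had an entry in that table, with 22 promoters. On either strand of the 250 bases before the start, 10 of these 22 promoters held CAGGTG, against 17.2% of all 32851 promoters. The octamer ATGCAAAT, bound by POU2F1 and POU2F2, was found before *Blnk* alone among them, against 1.6% of all promoters. TCCCNNGGGA was found before *Cd22* alone, against 0.779% of all promoters. The E-box and the TCCCNNGGGA match before *Cd22* do not share letters, and a match describes the letters and not a bound site.

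Across all genes, few separated the sides completely. Of the 24825 genes that reached a sum of 10 in the 10 females, 104 had a higher count in every rich than in every poor library, which is 0.419%, and 99 had a lower count in every rich library, which is 0.399%. Differences are given as the mean of log2(normalized count + 1) on the rich side minus that on the poor side, and their median over all 24825 genes was 0.0032. With every library scaled to the same total, 188 genes were higher and 47 lower in every rich library, and the median over all genes was 0.03. At shares of 0.419% and 0.399%, most of the short gene lists used below would hold no separating gene. A list in which none separated the sides is therefore not set apart from all genes.

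B cell surface and receptor genes separated the sides more often than that background, which follows from the choice of *Cd79a* in the same libraries. Of the 14 genes in this list, 8 were higher in every rich library, 0 were lower in every rich library, and the median difference was 1.19. *Cd79a*, which the split itself fixed, is among the 8, and without it 7 of 13 did not overlap with a median of 1.18. *Ms4a1*, which encodes the B cell surface protein CD20, had normalized counts of 318, 241, 259 and 279 in U9-KO females 1, 2 and 5 and WT female 2, the order used for the rich side throughout. Its poor values ran from 41 to 236 with a median of 113, so WT female 1, at 236, lay only just below the lowest rich library. The log2 difference was 1.27, or 2.41-fold.
*Cd79b*, the partner chain of *Cd79a*, had 267, 238, 204 and 200 on the rich side and from 69 to 191 with a median of 115.5 on the poor side, a log2 difference of 0.97. *Cd22*, the inhibitory co-receptor, had 306, 127, 140 and 164 against 30 to 123 with a median of 75.5, a log2 difference of 1.29. U9-KO female 1 was the highest library for *Cd22*, and the other 3 rich libraries were close to WT female 1.
*Cxcr5*, the receptor that draws B cells to CXCL13, had 131, 157, 139 and 123 on the rich side and 17 to 104 with a median of 51 on the poor side. *Fcmr*, a receptor for IgM, had 78, 79, 56 and 66 against 16 to 49 with a median of 23. Their log2 differences were 1.46 and 1.45. *Fcrla*, an Fc receptor-like protein of B cells, had 102, 62, 84 and 86 against 23 to 50, a log2 difference of 1.20.
The other 6 members overlapped. *Tnfrsf13c*, the receptor for the survival factor BAFF, had a log2 difference of 1.18 with 78, 29, 30 and 24 against 6 to 28. The complement receptor *Cr2* had 56, 33, 15 and 30 against 16 to 36, and *Cd72* had 119, 47, 59 and 43 against 44 to 79, a log2 difference of 0.03. U9-KO female 1 was the highest female for each of these 3 genes.

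**Figure D1:**
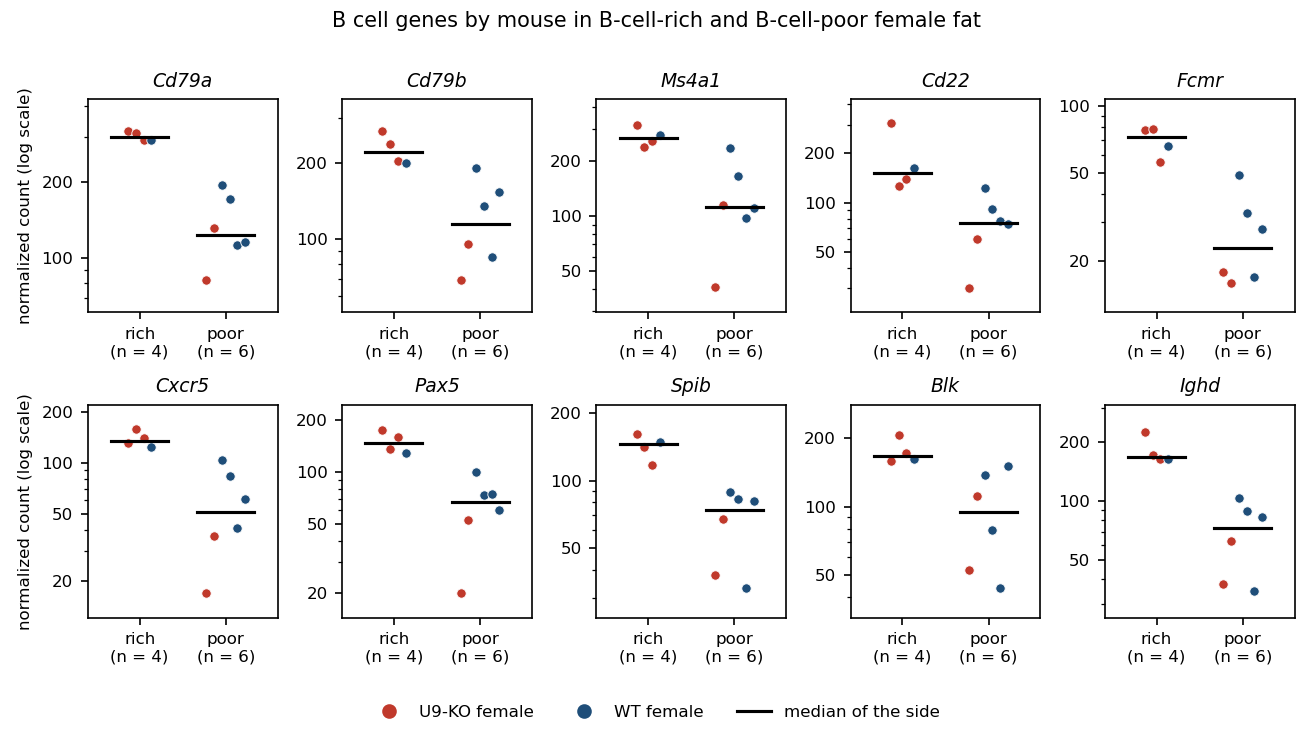
Normalized counts (vertical axis, log scale) of 10 B cell genes in each of the 4 B-cell-rich and 6 B-cell-poor female libraries, with red points for U9-KO and blue points for WT mice and a bar at the median of each side. All 10 are genes whose sides do not overlap, while 6 of 14 surface and 6 of 12 signalling genes of the B cell lists overlap and are not drawn. In each panel every rich library thus lies above every poor one, narrowly for Ms4a1 at 241 against 236 and Cd22 at 127 against 123. U9-KO female 3 is the lowest point for Ms4a1 at 41 and for Pax5 at 20.

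Genes for B cell signalling and transcription had the same direction. Of 12 listed, 6 were higher in every rich library, 0 were lower, and the median difference was 0.70. *Pax5*, the factor that holds cells to the B cell fate, had 175, 135, 158 and 128 on the rich side. Its poor values ran from 20 in U9-KO female 3 to 100 in WT female 1 with a median of 66.5, a log2 difference of 1.36. No library of the poor side reached the rich range.
*Spib*, an ETS factor of B cells and plasmacytoid dendritic cells, had 161, 141, 117 and 149 against 33 to 89 with a median of 74, a log2 difference of 1.20. *Pou2af1*, the co-activator that works with POU2F factors at octamers, had 317, 140, 130 and 147 against 49 to 109 with a median of 74.5, also 1.20. *Blk*, a kinase that acts below the receptor, had 159, 207, 171 and 161 against 44 to 151 with a median of 95, a log2 difference of 0.99.
*Ikzf3*, a zinc finger factor of lymphocytes, and *Pou2f2* had log2 differences of 1.06 and 0.78 and also did not overlap. The kinase *Btk*, the adaptor *Blnk*, *Bank1*, *Bach2*, *Ralgps2* and *Ciita* overlapped, with log2 differences from 0.20 to 0.62.
*Zbtb32*, a factor of B-1 and memory B cells, was the 1 non-overlapping gene of 4 in the B-1 list, with 84, 80, 77 and 108 against 35 to 76 and a log2 difference of 0.82. None of 6 germinal centre genes separated the sides (median difference 0.41, but 0.12 without U9-KO female 1 and -0.02 over the 3 with at least 10 in every mouse).

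Counts over the B cell lists were also taken without the libraries that had the most ovary or oviduct transcripts. Leaving out *Cd79a*, which separates the sides by construction in every subset, 13 of 25 genes did not overlap with all libraries, 13 of 25 without U9-KO female 1 and WT female 4, and 14 of 25 without these and WT female 3 and U9-KO female 4. A gene that separates the sides with all libraries also does so in any subset of them. Leaving out libraries therefore could not lower the count, and it says nothing about reproductive tissue. Over all genes the share higher in every rich library in these smaller sets was 1.15% and 3.52%. The median difference over the 25 genes was 0.97, 0.72 and 0.63 in turn. With quantile normalization 10 of the 25 did not overlap.

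For the non-overlapping genes the same order holds inside each genotype by construction, and the values are given by genotype for their size. Among U9-KO females, *Ms4a1* was 241 to 318 in the 3 rich and 41 to 115 in the 2 poor mice, and *Pax5* 135 to 175 and 20 to 53. Among WT females, the single rich mouse had 279 for *Ms4a1* against 98 to 236 in the 4 poor mice, and 128 against 60 to 100 for *Pax5*. Genotype itself, taken from the labels and not from the split, was tested with limma across all genes. It called 0 of 24825 genes (0.0%) at an adjusted p under 0.05, with 553 genes at an unadjusted p under 0.05. The paper, which used DESeq2, reported 5 genes that differed between the female genotypes at Padj below 0.05. The limma fit took rounded normalized counts and is a different method, so its 0 does not contradict the paper's 5. The log2 difference of U9-KO minus WT was -0.07 for *Ms4a1* (SE 0.52, adjusted p = 1 by limma) and -0.01 for *Pax5* (SE 0.53, adjusted p = 1 by limma). The *Ms4a1* mean was 194.8 ± 113 (SD, n = 5) in U9-KO and 178.0 ± 78.4 (SD, n = 5) in WT females, and the spread inside each genotype exceeded the difference between them.

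Antibody genes mostly overlapped between the sides. Of the 11 constant region genes that passed the filter, 1 was higher in every rich library, and the median difference was 1.36. This median was 0.52 without U9-KO female 1, 0.34 with genotype means removed and 0.18 without the 4 libraries highest in ovary or oviduct sums. The non-overlapping gene was *Ighd*, the constant region of the IgD receptor of mature naive B cells, with 227, 172, 164 and 165 on the rich side. The poor side ranged from 35 to 104 with a median of 73, and the log2 difference was 1.49.
*Igkc*, the kappa light chain constant region, had 9490, 2573, 1859 and 1297 on the rich side. Its poor values ran from 356 to 9071 with a median of 902.5. U9-KO female 3, the lowest of all females for *Cd79a*, was the second highest for *Igkc*.
*Ighm*, the IgM constant region, had 15921, 6607, 5498 and 10357 against 1098 to 18193, again with U9-KO female 3 the highest. *Ighg3* had 792, 2205, 23 and 1073 against 13 to 2838, and *Igha* 251, 174, 1393 and 265 against 225 to 1451. *Jchain*, which joins secreted IgM and IgA, had 2531, 576, 753 and 275 against 113 to 3471 with a median of 321.5.
By genotype, every U9-KO female was above every WT female for *Igkc*, at 1859 to 9490 against 356 to 1297. The same held for *Jchain*, at 576 to 3471 against 113 to 341. *Igkc* had 4975 ± 3943 normalized counts in U9-KO and 770 ± 418 in WT females (SD, n = 5 each), a log2 difference of 2.48 (SE 0.55, adjusted p = 1 by limma), and *Jchain* had a log2 difference of 2.54 (SE 0.53, adjusted p = 1 by limma). Neither passed the test over all genes.

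Of the 162 immunoglobulin variable segments that passed the filter, out of 218 annotated, 1 was higher in every rich library and 0 were lower, a share close to the 0.419% of all genes. That segment was *Ighv1-80*, with 16, 36, 6 and 43 on the rich side and 0 to 3 on the poor side, a log2 difference of 3.22. Variable segments resemble each other closely and reads may be divided among them, so its value is uncertain.
Plasma cell genes were mixed. Of 10, 0 were higher in every rich library, 1 was lower, and the median difference was 0.30, which became -0.11 without U9-KO female 1. *Mzb1*, a chaperone for antibody assembly, had 108, 19, 10 and 17 against 2 to 26. The gene that was lower was *Irf4*, a factor of plasma cells that is also made by adipocytes, macrophages and T cells. *Irf4* had 347, 319, 299 and 274 on the rich side and 371 to 3064 with a median of 1085.5 on the poor side, a log2 difference of -1.72. WT female 1, at 371, was the poor library nearest to the rich side, and WT female 3, at 3064, the farthest. With each library scaled to the same total, *Irf4* overlapped between the sides.

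**Figure D2:**
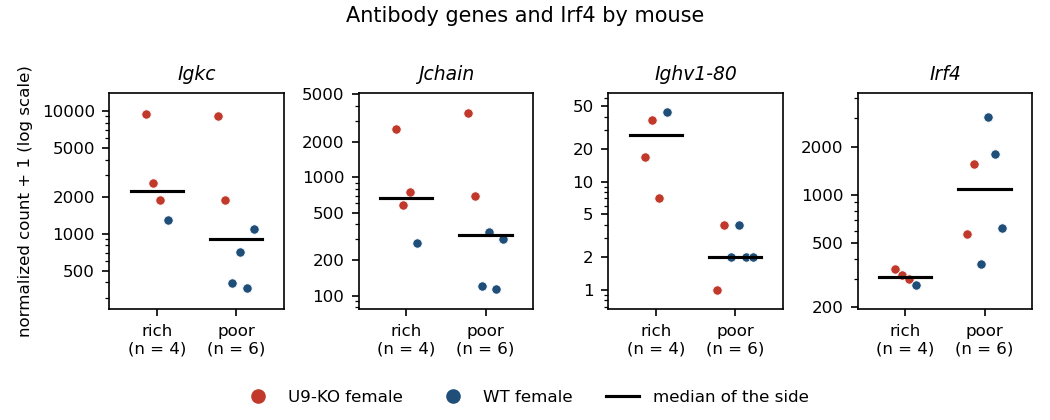
Normalized count + 1 (vertical axis, log scale) of Igkc, Jchain, Ighv1-80 and Irf4 in the 4 B-cell-rich and 6 B-cell-poor female libraries, red for U9-KO and blue for WT, with a bar at each median. Igkc and Jchain overlap between the sides, and Irf4 is at 274 to 347 in every rich library and at 371 or more in every poor one.

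T cell genes overlapped, as nearly all genes did. None of 22 separated the sides and the median difference was 0.44, against 1.19 for B cell surface genes. *Cd3e*, a chain of the T cell receptor complex, had 30, 10, 39 and 13 on the rich side and 15 to 29 with a median of 21 on the poor side, a log2 difference of -0.01. *Cd4* had 107, 50, 61 and 36 against 28 to 68, and *Cd8a* 23, 23, 18 and 6 against 6 to 18. U9-KO female 1 was the highest library for *Cd4*.
*Cd6*, a co-receptor of T cells, had the largest positive difference in the list at 0.96, with 32, 10, 14 and 5 against 1 to 15. *Trac*, the constant region of the receptor alpha chain, had the largest negative one at -0.91, with 116, 263, 105 and 81 against 131 to 428 and a median of 244.5. Without U9-KO female 1 the median of the T cell list was 0.26.
None of 7 regulatory T cell genes and none of 9 NK and cytotoxic genes separated the sides, with median differences of 0.22 and 0.48. Only 1 of the cytotoxic genes had at least 10 in every mouse, with a difference of -0.44. *Il2ra*, the high-affinity receptor chain for interleukin 2, had 73, 103, 120 and 107 against 58 to 134. *Ikzf2* had 267, 188, 265 and 203 against 245 to 402. *Gzmb* and *Nkg7*, of cytotoxic granules, had 11 to 22 against 3 to 16 and 17 to 42 against 8 to 30.

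Among 15 genes for the signals of lymphoid clusters, 2 were higher in every rich library and the median difference was 0.19. *Cxcr5*, given above, was among them. *Ltb*, the lymphotoxin chain that acts on stroma, had 145, 116, 141 and 104 against 38 to 108 and overlapped only through WT female 2 and WT female 1.
The stromal chemokines overlapped. *Cxcl13* had 342, 598, 506 and 479 on the rich side and 92 to 477 with a median of 371 on the poor side, so that U9-KO female 1 alone among the rich mice fell within the poor range. *Ccl21a*, the ligand of CCR7, had 1969, 2085, 2836 and 2766 against 1449 to 2017 with a median of 1670, a log2 difference of 0.49, and again U9-KO female 1 alone fell within the poor range. *Ccl19* had 54, 31, 46 and 35 against 25 to 75. *Tnfsf13b*, which encodes BAFF, and *Il33* had log2 differences of -0.13 and 0.13.

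Genes of other leukocytes, and genes that B cells share with them, differed less. All 10 MHC class II genes had a positive difference, with a median of 0.29, and 1 of them did not overlap. This was *H2-Ob*, an inhibitor of peptide loading that is made in B cells, with 316, 234, 258 and 258 against 103 to 219 with a median of 193.5. *H2-Aa*, made by all antigen-presenting cells, had 5353, 4688, 5720 and 5585 against 3033 to 5674. Of 10 pan-leukocyte genes, all had a positive difference and *Rac2*, a GTPase of blood cells, did not overlap, with 409, 324, 341 and 337 against 205 to 317 and a log2 difference of 0.53.
None of 14 macrophage genes, 7 dendritic cell genes and 5 neutrophil genes separated the sides, with median differences of 0.08, 0.30 and -0.13. The neutrophil median ran from -0.92 to 0.26 over the alternatives. *Adgre1*, which encodes the macrophage marker F4/80, had 649, 835, 835 and 841 against 441 to 1004. *Itgax*, an integrin of dendritic cells and of some macrophages, had 247, 131, 184 and 176 against 104 to 136 and overlapped through U9-KO female 2 and WT female 4. *Spp1*, a secreted protein of lipid-associated macrophages, had 38, 42, 40 and 55 against 14 to 847 with a median of 152, a log2 difference of -1.69. The low count of *Spp1* in WT female 1, at 14, set it apart from the other 5 poor libraries, which had 77 or more.

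**Figure D3:**
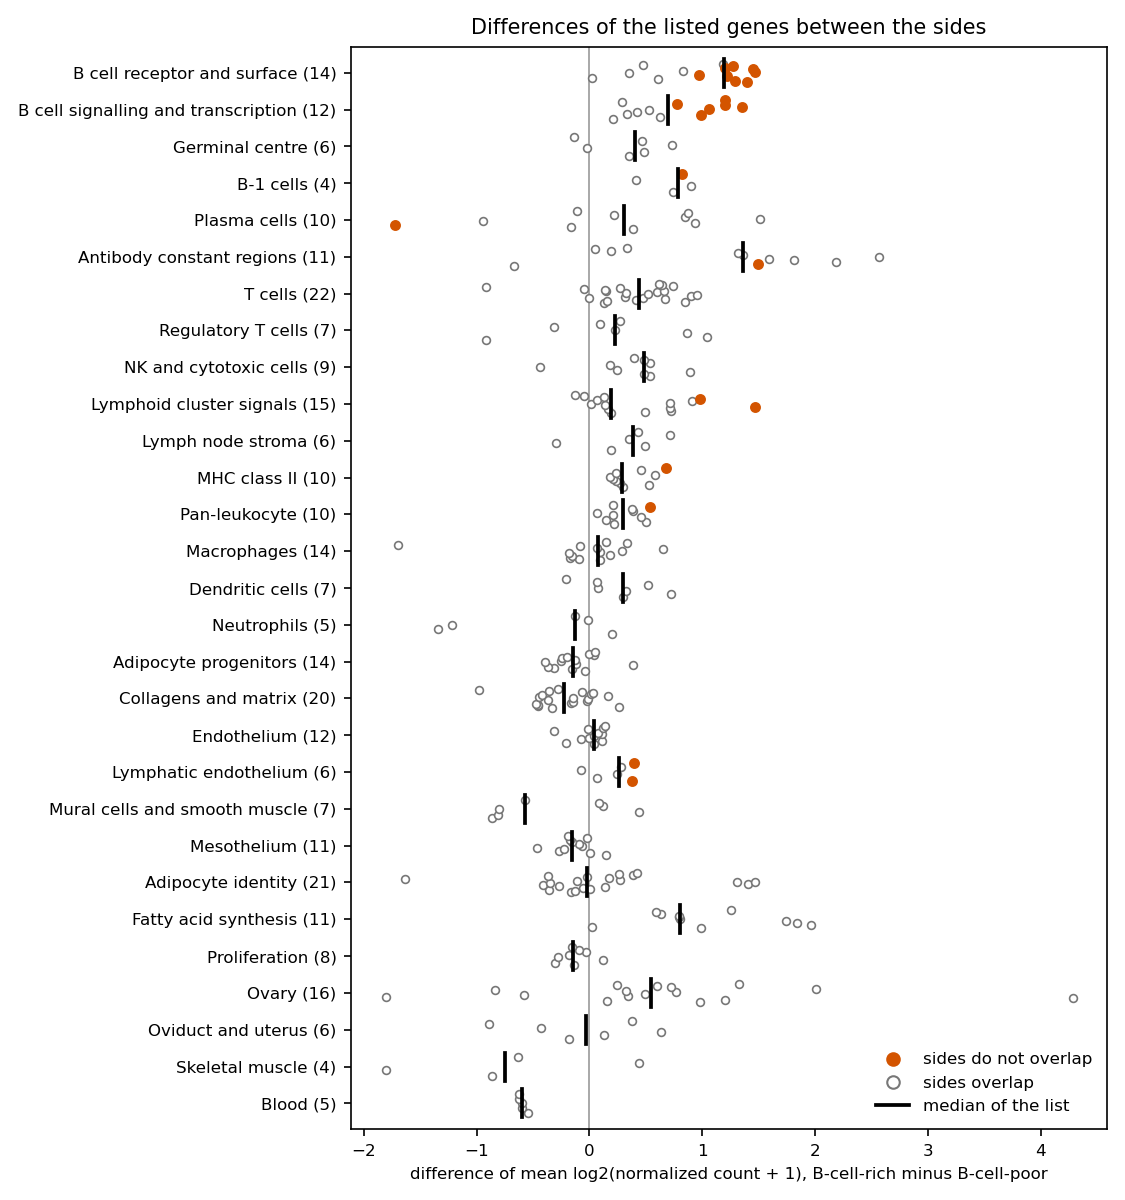
Difference of mean log2(normalized count + 1) between the 4 B-cell-rich and 6 B-cell-poor libraries (horizontal axis) for each gene of 29 lists (rows, number of genes that passed the filter in brackets), with filled points for genes whose sides do not overlap and a bar at the median of each list. The B cell lists hold 14 filled points, Cd79a among them, and medians of 1.19 and 0.70, the collagen, mesothelium and adipocyte identity lists hold none, and the fatty acid synthesis list has a median of 0.80 with no filled point.

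Adipocyte progenitor and matrix genes overlapped, and with all libraries most were a little lower on the rich side. None of 14 adipocyte progenitor genes and none of 20 collagen and matrix genes separated the sides, and 16 of the 20 matrix genes had a negative difference, with a median of -0.22. Without the 4 libraries highest in ovary or oviduct sums the matrix median was 0.03 and the progenitor median 0.0036, against -0.14 with all libraries. *Pdgfra*, the receptor that marks progenitors, had 2282, 3366, 2757 and 2485 on the rich side and 1856 to 4398 with a median of 3471 on the poor side. *Dpp4*, a marker of early progenitors, had 773, 1053, 1249 and 1140 against 559 to 1607 with a median of 1276.
*Col1a1*, a chain of type I collagen, had 11903, 12396, 21707 and 15610 against 10433 to 38987 with a median of 20633. *Col3a1* had 33648, 35654, 45973 and 43414 against 41716 to 77845. *Postn*, a matrix protein of activated fibroblasts, had 3333, 5764, 8410 and 3933 against 2947 to 19433 with a median of 10687.5, a log2 difference of -0.98.
The high values of *Col1a1*, *Col3a1* and *Postn* came from WT female 3, U9-KO female 4 and WT female 5, of which the first 2 were the libraries with the highest oviduct sums. The part of reproductive tissue in these differences was not tested.

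Mural and smooth muscle genes went in both directions. None of the 7 separated the sides, 3 had a positive and 4 a negative difference, and the median was -0.57. The differences ran from -0.86 to 0.44, and the 2 genes given next were both lower on the rich side. *Acta2*, smooth muscle actin, had 13267, 14504, 29732 and 11828 on the rich side and 6443 to 57333 with a median of 33144 on the poor side. *Cnn1*, a calponin of contractile smooth muscle, had 2790, 3346, 10797 and 2899 against 807 to 15965. U9-KO female 3 was the lowest female and U9-KO female 4 the highest for both. Without the 4 libraries highest in ovary or oviduct sums the median difference of this list was -0.13.
Genes of blood vessel endothelium did not separate the sides in any of 12 cases, with a median difference of 0.04. *Pecam1*, the adhesion molecule CD31, had 3931, 5246, 4860 and 4847 against 3130 to 6654 with a median of 4435.
Of 6 lymphatic endothelium genes, 2 were higher in every rich library, and the median difference was 0.26. *Flt4*, the receptor for the lymphatic growth factor VEGF-C (chr11:49609263-49652739), had 1063, 966, 1056 and 1139 on the rich side. The poor side ranged from 720 to 884 with a median of 838.5, so the sides did not overlap, and the log2 difference was 0.38 or 1.30-fold. *Reln*, a secreted glycoprotein of collecting lymphatics, had 626, 716, 625 and 576 against 435 to 567, a log2 difference of 0.40. With WT female 1 moved to the rich side, as the fifth highest for *Cd79a*, 0 of the 6 genes separated the sides and the median was 0.08.
*Prox1*, the factor that sets lymphatic identity, had 214, 219, 214 and 258 against 132 to 223, and *Mmrn1* had 1120, 1203, 1216 and 1388 against 748 to 1378. Both overlapped. With each library scaled to the same total, and with quantile normalization, *Flt4* still did not overlap while *Reln* did.
None of 11 mesothelium genes separated the sides, with a median of -0.15, or 0.12 without the 4 libraries highest in ovary or oviduct sums. *Msln*, the mesothelial surface protein mesothelin, had 898, 1210, 1749 and 1815 against 960 to 1919.

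Adipocyte identity genes all overlapped, where 0.419% of all genes were higher and 0.399% lower in every rich library. Of 21 genes, 10 had a positive and 11 a negative difference, and the median was -0.02. *Adipoq*, the hormone adiponectin, had 27618, 70236, 49174 and 58640 on the rich side and 30644 to 72328 with a median of 56841 on the poor side. *Fabp4*, the fatty acid binding protein of fat cells, had 65303, 124266, 88900 and 91449 against 84388 to 163148. *Plin1*, which coats lipid droplets, had 26165, 46957, 41597 and 46815 against 19511 to 54092, and *Pparg*, the master factor of fat cell differentiation, 2527, 4690, 2848 and 4576 against 1515 to 5352.
U9-KO female 1 and WT female 4, the libraries with the highest ovary sums, had the lowest counts of all females for both *Adipoq* and *Plin1*.
The 2 largest differences in the list had opposite signs. *Gpd1*, which makes the glycerol backbone from glucose, had 12144, 20185, 9897 and 17632 against 1292 to 30735 with a median of 4019.5, a log2 difference of 1.47. *Pck1*, the enzyme of glyceroneogenesis that fasting raises, had 6312, 8742, 17902 and 5427 against 13931 to 46591 with a median of 30764.5, a log2 difference of -1.63. *Pck1* overlapped through U9-KO female 5 alone, which lay above U9-KO female 3 and WT female 1. *Lep*, which encodes leptin, had 5362, 10245, 9229 and 17220 against 1160 to 14039 with a median of 4123, a log2 difference of 1.30.

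All 11 genes of fatty acid synthesis had a positive difference, with a median of 0.80, and none separated the sides. *Fasn*, fatty acid synthase, had 353643, 429828, 196207 and 398953 on the rich side. The poor libraries had 931443 in U9-KO female 3, 423472 in WT female 1, 112571 in WT female 5, 38582 in WT female 4, 29690 in U9-KO female 4 and 18029 in WT female 3. Every rich library was thus above 4 of the 6 poor ones, while U9-KO female 3 was above all of them.
*Acly*, which supplies cytosolic acetyl-CoA, had 80469, 80755, 45510 and 71647 against 4196 to 238318 with a median of 9706.5. *Elovl6*, which lengthens saturated fatty acids, had 20976, 25681, 8260 and 10963 against 581 to 71337. *Scd1*, the main desaturase of fat, had 456277, 495714, 211873 and 402277 against 85092 to 1353006. Their log2 differences were 1.97, 1.84 and 0.63, and U9-KO female 3 was the highest female for each.
The direction rested on the poor libraries with low values. The 4 libraries highest in ovary or oviduct sums included WT female 3, U9-KO female 4 and WT female 4, which had the lowest *Fasn* counts. Without these 4, the median of the list was -0.21 and the difference of *Fasn* was -0.13.

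**Figure D4:**
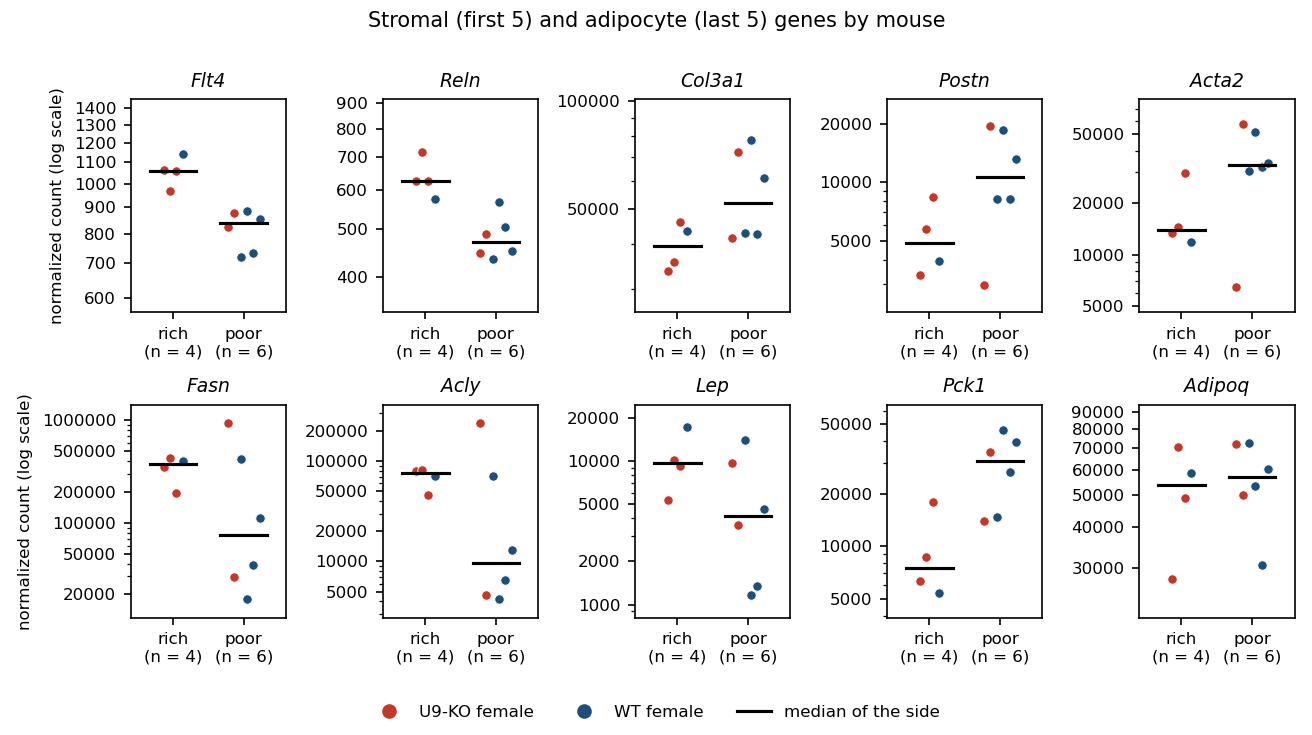
Normalized counts (vertical axis, log scale) of Flt4, Reln, Col3a1, Postn and Acta2 (upper row) and of Fasn, Acly, Lep, Pck1 and Adipoq (lower row) in the 4 B-cell-rich and 6 B-cell-poor female libraries, red for U9-KO and blue for WT, with a bar at each median. Flt4 and Reln do not overlap between the sides, and the poor values of Fasn spread from 18029 to 931443 around the rich values of 196207 to 429828.

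The remaining lists covered other tissues and dividing cells, and none of their genes separated the sides with all libraries as deposited. The 8 proliferation genes had a median difference of -0.15, and *Ccnb1*, a mitotic cyclin, was highest in WT female 4 at 340 and U9-KO female 1 at 210, the 2 libraries with the highest ovary sums. The 16 ovary genes had a median difference of 0.55, which became -0.02 without U9-KO female 1. *Star*, which carries cholesterol into mitochondria for steroid synthesis, had 8440, 680, 1680 and 2184 against 350 to 5615, and *Cyp17a1*, the androgen-forming enzyme of the theca, had 1129, 126, 130 and 203 against 2 to 204. For *Cyp17a1* WT female 4, at 204, was the single poor library within the rich range. The 5 blood genes all had a negative difference, with a median of -0.60, and *Hbb-bs*, a beta globin, had 3883, 6247, 6748 and 4094 against 6089 to 14430. With genotype means removed, all 5 blood genes were lower in every rich library, as were 196 of the 24825 genes, and the blood median was -0.91. The part of these tissues in the differences between the sides was not tested.

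Outside the lists, genes with a mean of at least 10 that separated the sides included further B cell genes. *Siglecg*, an inhibitory receptor of B cells, had 243, 233, 234 and 221 on the rich side and 67 to 175 with a median of 117 on the poor side, a log2 difference of 1.07. *Ly6d*, a surface protein of early B cells and of some epithelia, had 89, 76, 73 and 73 against 25 to 62. *Cpne5*, a copine, had 18, 17, 28 and 20 against 5 to 9, a log2 difference of 1.43.
*Zc3h12d*, a regulator of RNA decay in lymphocytes, had 69, 81, 70 and 75 against 20 to 46, and *Cxcr3*, a chemokine receptor of activated T cells and some B cells, had 81, 46, 42 and 46 against 18 to 35. *Zfp831* and *BC051142* had 43 to 62 against 9 to 40 and 33 to 72 against 15 to 31. *Foxred2*, an enzyme of the endoplasmic reticulum, had 285, 402, 510 and 390 against 113 to 283, and *Dio3*, which inactivates thyroid hormone, had 44 to 117 against 21 to 40.
The 10 lower genes were of other kinds. *Gm44956* had 4, 2, 4 and 2 on the rich side and 14 to 40 on the poor side, a log2 difference of -2.70. *Gm8097*, *Ccpg1* and *AC102055.1* had at most 8, 6 and 19 on the rich side and at least 12, 8 and 22 on the poor side. *Hcar2*, the adipocyte receptor for ketone bodies and niacin, had 247, 345, 351 and 269 against 500 to 833 with a median of 585, a log2 difference of -1.06.
*Net1*, an exchange factor for RhoA, had 2556, 3325, 2833 and 3278 against 4200 to 8128, a log2 difference of -1.11. *Rbp7*, a retinol binding protein of fat endothelium and adipocytes, had 147 to 228 against 283 to 559, and *Gadd45g*, a stress response gene, 205 to 430 against 473 to 1051. *Fgl1* and *Grhl1* had 12 to 41 against 50 to 67 and 175 to 442 against 486 to 734.

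The male libraries were not used in the split and gave a separate measure of which genes vary with *Cd79a*. In males *Cd79a* had 131, 208 and 106 normalized counts in WT males 1 to 3, and 70, 72, 77 and 64 in U9-KO males 1 to 4. The genotypes did not overlap for *Cd79a* in males, so genotype was kept as a covariate, and WT male 2 carried most of the remaining range. limma called 0 of 21929 genes (0.0%) for a slope on log2(*Cd79a* count + 1) at an adjusted p under 0.05, with 1708 genes at an unadjusted p under 0.05.
The slope was 1.38 for *Ms4a1* (SE 0.42, adjusted p = 0.622 by limma), 1.13 for *Spib* (SE 0.40) and 1.12 for *Pax5* (SE 0.48), where 1 means a proportional change. *Ms4a1* had 92, 157 and 54 in WT males 1 to 3 and 38 to 58 in the 4 U9-KO males. Both *Cd79a* and *Ms4a1* were highest in WT male 2.
Of 13 B cell surface genes tested in males, 12 had a positive slope, with a median of 0.69, and of 12 signalling and transcription genes 11 had a positive slope, with a median of 0.81. The median slope over all genes was 0.02. *Cxcl13* had 298, 2157 and 64 in WT males and 37 to 141 in U9-KO males, with a slope of 4.65 (SE 0.91). Of 22 T cell genes 4 had a positive slope with a median of -1.03, while without the genotype covariate the median was 0.17. *Flt4* had a slope of 0.19 (SE 0.33), and the fatty acid synthesis list had a median slope of -0.86, where 1 of 11 genes was positive. None of these genes passed the test over all genes.

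**Figure D5:**
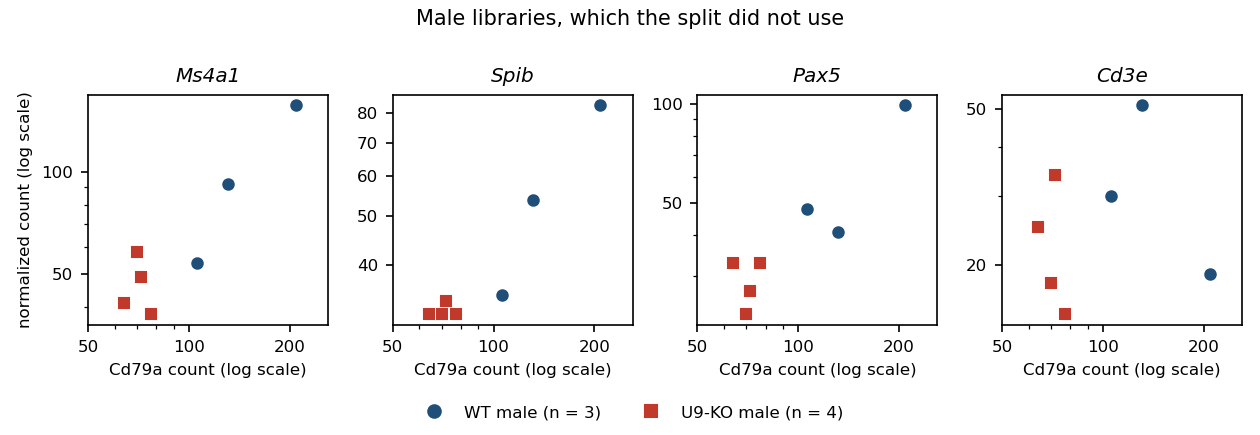
Normalized counts of Ms4a1, Spib, Pax5 and Cd3e (vertical axes, log scale) against that of Cd79a (horizontal axis, log scale) in the 3 WT and 4 U9-KO male libraries, 1 point per mouse. WT male 2, with a Cd79a count of 208, is the highest point for Ms4a1 at 157, Spib at 83 and Pax5 at 99, and lies at 19 for Cd3e.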

How the data were processed

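Total RNA from snap-frozen whole pWAT was sequenced with a stranded paired-end protocol. After quality control (FastQC, MultiQC) and trimming (trim_galore), the authors aligned the reads to GRCm38 using STAR 2.7.3a and obtained gene counts by summarizeOverlaps (Union), with versions and build as the submitters' processing notes list them. The values deposited by the authors are treated as a score per gene, a DESeq2 1.28.1 normalized count rounded to a whole number, with the samples of each sex normalized apart. As these are not raw counts, no count model was fitted.

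GENCODE release M21 named 55141 of 55401 gene identifiers. The members, gene lists and tests were chosen with earlier results of these data known. The sides were compared by ranges and by log2(normalized count + 1) for genes with a total of at least 10, with no test. Genotype in females and the male slope on *Cd79a* with genotype as a covariate were tested with limma 3.58.1 in R 4.3.3 (lmFit, eBayes with trend), with Benjamini-Hochberg adjustment over all genes and a threshold of 0.05. Simulated data had independent normal values, with 100 genes changed by 1 log2 unit and 100 by 2 among 24824 genes. The changed genes were drawn only from those with a mean log2 value above that of a count of 10. On these data the female fit recovered 60% of genes changed by 1 log2 unit and 87% of genes changed by 2. The real values need not follow these settings, so the shares do not measure what the real test could find. Other steps used Python 3.11.15, pandas 2.3.3, numpy 2.4.6, scipy 1.17.1 and matplotlib 3.10.9.

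Size factors were estimated from the gaps that division leaves among small whole numbers, with no value for WT male 3. Any 2 female libraries differed in at least 25796 genes, so each mouse was counted as 1 replicate. The sources do not say whether RNA was extracted in batches. Named genes were *Cd79a*, a fixed set of lymphoid, stromal and adipocyte markers, up to 5 non-overlapping members of each list by size of difference or else the 2 with the largest difference at a mean of at least 10, and the 10 largest non-overlapping genes in each direction outside the lists. *Fcrla*, *Pou2f2* and other list members with values were added after their values were seen, and some genes covered by the rule are not reported here. Of the 101 genes named by the rule, 25 overlap an annotated gene on the other strand and 17 one on the same strand, *Pax5* in both ways, and it is not stated whether counting used strand, so reads of such pairs may be divided. Alternatives were other splits, pseudocounts, filters, scalings, removal of genotype means, the replicate number as a block and leaving out mice.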

Additional observations from a re-analysis of the deposited data

Results flagged for a closer look

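Within the 5 WT and the 5 U9-KO females, the highest or lowest library stood apart from the other 4 in 25 of 258 gene or list values examined, by the gap to its neighbour relative to the whole range. For independent values with a normal spread, about 1 in 20, or 12.9 of 258, would be flagged. Counts are skewed and the list sums share genes with the single values, so 12.9 is not a chance level for the 25.

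For reproductive tissue, WT female 4 had a summed ovary count of 130471 (others at most 39115), U9-KO female 1 had 143191 (others at most 23182), and U9-KO female 1 also had 8440 for *Star*, 1129 for *Cyp17a1* and 6583 for *Lhcgr*. *Ccnb1* was at 340 in WT female 4 and at 210 in U9-KO female 1. The summed oviduct and uterus count was 8585 in WT female 3 and 2273 in U9-KO female 4, *Ovgp1*, the oviduct glycoprotein, was at 7684 and 1256 in the same mice, and *Hoxa10* was at 157 in WT female 3.

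WT female 2, the only WT mouse on the B-cell-rich side, had the highest WT values for the summed B cell signalling and transcription list at 2346 (others 1670 to 1861), for *Ighv1-80* at 43 and for *Cpne5* at 20, and the lowest for *Hbb-bs* at 4094 and *Hbb-bt* at 1083. *Ighv1-80* and *Cpne5* were named because their sides differ, so their flags follow in part from that choice.

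On the B-cell-poor side, WT female 1 was highest for *Bcl6* at 3071 (others 665 to 1005) and so for the summed germinal centre list at 3502. U9-KO female 4 was highest for *Irf4* at 1552 (others 299 to 572) and *F3* at 2266. U9-KO female 3 was highest for the summed endothelium list at 45154 (others 25466 to 30822) and *Cldn5* at 2837. WT female 3 was highest for *S100a9* at 19, and WT female 4 lowest for *Pecam1* at 3130 (others 4432 to 4847).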

How the results depend on the processing

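The 4 mice highest for *Ms4a1* were the B-cell-rich mice, so a split by this gene gave the same sides. A split of the 3 highest mice could not be made because *Cd79a* was 293 in both U9-KO female 5 and WT female 2. The counts of genes higher and lower in every rich library, 104 and 99, were 159 and 137 with the 5 highest mice, 188 and 47 with equal totals, 197 and 196 with genotype means removed, 165 and 178 without U9-KO female 1, the mouse with the highest ovary sum, and, in alternatives chosen after seeing the data, 274 and 305 without both mice highest in ovary sums and 803 and 782 without the 4 mice highest in ovary or oviduct sums. With single mice left out they ranged from 129 to 257 and from 127 to 314. Fewer mice leave fewer chances to overlap. Of 2306 values of named genes under these alternatives, 2293 moved by less than the spread within the sides, 13 moved by more and 0 of the non-overlapping genes changed sign. Of 667 list medians 655 moved by less than that spread.

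With the 5 highest mice, 3 were U9-KO and 2 WT, and Fisher's exact test gave p = 1. In the female genotype fit 0 genes were called under every alternative. Those at an unadjusted p under 0.05, 553, were 873 with no filter, 194 with at least 10 in every mouse, 456 with the replicate block, and 410 to 1225 with single mice left out. The replicate block left 0 genes called, and deviations of same-numbered females from their group means correlated at -0.44 to 0.11 and those of males at -0.12 to -0.01, so the numbers were not taken as pairs.

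In males the slope on *Cd79a* called 5 genes without the genotype covariate, all higher (*Ighv11-2*, *Cep85*, *Igkv14-126*, *Igkv8-27* and *Dbp*, named after their values were seen), with 2568 at an unadjusted p under 0.05. With the replicate block and genotype 0 were called and 482 had an unadjusted p under 0.05. With single males left out, 0 to 740 were called, 740 without WT male 3 and 0 in the other 6 fits, and 1187 to 3872 had an unadjusted p under 0.05. The cause was not tested. With 7 males, slopes of the size simulated at 1 were recovered in 22% of 100 genes, under the same simulation settings as the female fit.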

Other observations

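With a mean count of 10 or more required, 86 genes had lower counts in every B-cell-rich library, of which 4 more are given here, chosen after their values were seen and standing for no group. *Angptl4*, an inhibitor of lipoprotein lipase, had 4328, 3358, 4547 and 4746 normalized counts in U9-KO females 1, 2 and 5 and WT female 2, and 5806 to 10266 with a median of 7994 in the poor libraries. *Pdk4*, a kinase that restrains glucose oxidation, had 1035, 1569, 1454 and 1205 against 1602 to 2237. *Hcar1*, the lactate receptor of fat cells, had 1403, 2542, 1932 and 1988 against 2761 to 3805, and *Cebpd*, a factor induced by glucocorticoids, had 362, 334, 514 and 524 against 562 to 798. Their log2 differences were -0.93, -0.55, -0.80 and -0.62. Among the 86, *Irf4* ranked 3 by size of difference, *Angptl4* 13, *Hcar1* 18, *Cebpd* 22 and *Pdk4* 26.

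The heavy chain segment *Ighv11-2* and the light chain segment *Igkv14-126*, which pair in B-1 cells that bind phosphatidylcholine, did not follow the sides. *Ighv11-2* had 19, 113, 22 and 42 in the rich libraries and 10 to 395 in the poor ones, and *Igkv14-126* had 22, 111, 13 and 83 against 19 to 532. U9-KO female 3, the lowest female for *Cd79a*, was the highest for both.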
